A study of Solanum lycopersicum with 24 samples.

Results

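The comparison set anthers at the polarized microspore stage against anthers at the free microspore stage, both from tomato (Solanum lycopersicum, dwarf cultivar Micro-Tom) kept at control temperature. It used the 4 libraries of each stage that the labels mark CT, which are 8 of the 24 libraries of the series, and the libraries were chosen by label alone. Control plants stayed at 25 °C in the day and 19 °C at night with 50% relative humidity, under 12 hours of light. Free microspore anthers were taken on day 6 and polarized microspore anthers on day 8, counted from flowering, when the heat-treated plants of the series were moved, and each about 5 hours after lights on. Each library was made from 6 pooled anthers. The remaining libraries, used here only for reference, were tetrad anthers of day 4 at CT and the same 3 stages under LTMH, a prolonged moderate heat of 34 °C in daytime and 28 °C in the dark with 68% relative humidity. The question is what changes in the anther as free microspores polarize in normal development. Each stage was harvested on its own day, so stage, anther age and harvest day cannot be told apart.

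A microspore is freed when the callose wall around the 4 products of meiosis is digested. It then grows, forms a large vacuole, and its nucleus moves to one side, which is the polarization that precedes the asymmetric division into a vegetative and a generative cell. The tapetum, the innermost layer of the anther wall, feeds the microspores and supplies material for the outer pollen wall, and it breaks down as pollen matures. An anther library mixes the microspores with the tapetum and the outer wall layers. Fewer cells of a type and less RNA per cell therefore cannot be told apart in these data.

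The 8 libraries held 15657765 to 20075897 reads over genes, and 21429 of 35768 listed genes had enough reads to be tested in the whole series. The files give genes by tomato identifiers and do not pair them with names. The available name table, for assembly SLM_r2.1, matched 0 of them. No gene is therefore named, the tissue was not checked against marker genes, and 2 identifiers that rose and 2 that fell stand for the rest. Nothing in the labels ties a stage's 4 libraries to different plants, and p-values speak only for the scatter among these libraries, which may be technical.

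The step from the free to the polarized microspore stage came with a change in a large part of the transcriptome, and the losses were deeper than the gains. Of the tested genes 8799 (41.1%) changed. In polarized microspore anthers 4206 genes were higher (19.6% of those tested) and 4593 were lower (21.4%) than in free microspore anthers (edgeR quasi-likelihood test, adjusted p below 0.05). The genes that rose did so by a median of 0.55 on the log2 scale, and the genes that fell had a median log2 change of -1.01. Of the risen genes 1098 were at least 2-fold higher, while 2320 of the fallen genes were at least 2-fold lower. At 8-fold or more the numbers were 194 higher and 844 lower genes. The median change over all tested genes was -0.03. Higher genes made up 47.8% of the calls, against 58.8% in limma on log2(FPKM + 1). Many of the deepest falls were in genes with few reads, and 15 of the 844 had fewer than 20 reads in the 8 libraries. Among genes that averaged 1 CPM or more (reads scaled to library size) over the 8 libraries, 924 genes rose and 1692 fell by 2-fold or more, and 144 and 550 reached 8-fold.

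**Figure D1:**
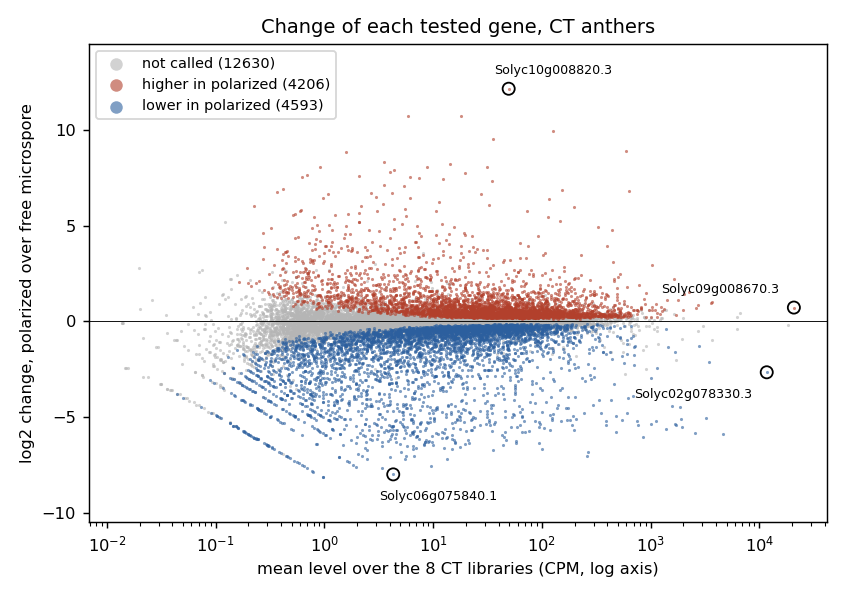
Log2 change between polarized and free microspore CT anthers (vertical axis, n = 4 libraries each) against the mean CPM of the 8 libraries (horizontal log axis), 1 point per tested gene, with the 4 named genes circled; 2 tested genes without a read in these libraries are not drawn. Of the 4206 genes called higher, 3108 lie within 2-fold of the zero line, as do 2273 of the 4593 called lower.

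The libraries of both stages did not overlap for most genes called, which a call on the same libraries already favours. Every polarized library lay above every free microspore library for 3517 tested genes (16.4%), and below for 3703 (17.3%). Of the genes called, 3199 risen and 3332 fallen genes had no overlap between the stages. The split of calls between the directions also followed the level of the gene. Among the 5358 tested genes with the lowest level (median 1.00 CPM), 9.76% rose and 26.97% fell. Among the 5357 with the highest level (median 76.2 CPM), 32.4% rose and 16.9% fell. The read filter ran over all 24 libraries, so reads at the tetrad stage or in LTMH could bring a low gene into the test. The part of the filter in this split was not tested.

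**Figure D2:**
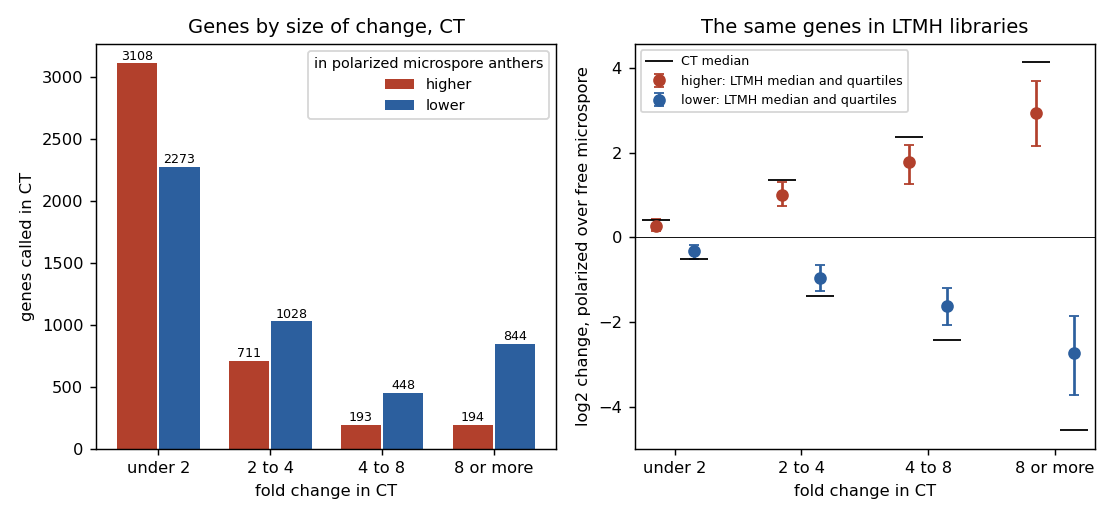
Left, number of genes called higher or lower in polarized microspore anthers at CT, by fold change. Right, median log2 change of the same genes between the LTMH stages (points, with bars from the lower to the upper quartile over genes) beside their CT median (black dash). Small rises outnumber small falls, 3108 to 2273, and the order turns from 2-fold upward.

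The genes that rose 8-fold or more had a low median level before microspores polarized. Their median was 0.13, 0.14, 0.23 and 0.18 CPM in the tetrad CT libraries, 0.17, 0.13, 0.34 and 0.19 CPM in the free microspore libraries, and 3.01, 2.86, 4.68 and 11.2 CPM in the polarized libraries. All tetrad and free microspore libraries lay below every polarized library, and polarized replicate 4 stood far above the other 3. The group as a whole took 0.0226 ± 0.00684% of reads in tetrad, 0.0479 ± 0.0340% in free and 1.13 ± 0.932% in polarized microspore anthers (SD, n = 4 each, with the genes chosen on these libraries). Of these 194 genes, 8 had no read in the free microspore libraries, and with those set at the bound that 3 reads over the 4 libraries allow, the median log2 change was 4.08 in place of 4.13.

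The genes that fell 8-fold or more had a median level that was highest at the tetrad stage and lowest at polarization. Single members departed from that order, and 17 of the 844 were called higher from the tetrad to the free microspore stage in LTMH. The median was 10.3, 10.4, 8.15 and 9.87 CPM in the tetrad CT libraries, 5.44, 7.21, 3.35 and 1.44 CPM in the free microspore libraries and 0.098, 0.35, 0.12 and 0.11 CPM in the polarized libraries. The free microspore libraries ranged widely between the levels of the stages before and after. Together these 844 genes took 19.3 ± 2.14% of reads at the tetrad stage, 8.599 ± 5.17% at the free microspore stage and 0.308 ± 0.218% at the polarized microspore stage (SD, n = 4 each, genes chosen on the latter 2 stages). In 62 of them the polarized libraries held no read. With those at the bound that 3 reads allow, the median log2 change was -4.36 rather than -4.56. The read filter included the tetrad libraries, so tetrad reads could help such a gene into the test. The part of the filter in the order of the stages was not tested.

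**Figure D3:**
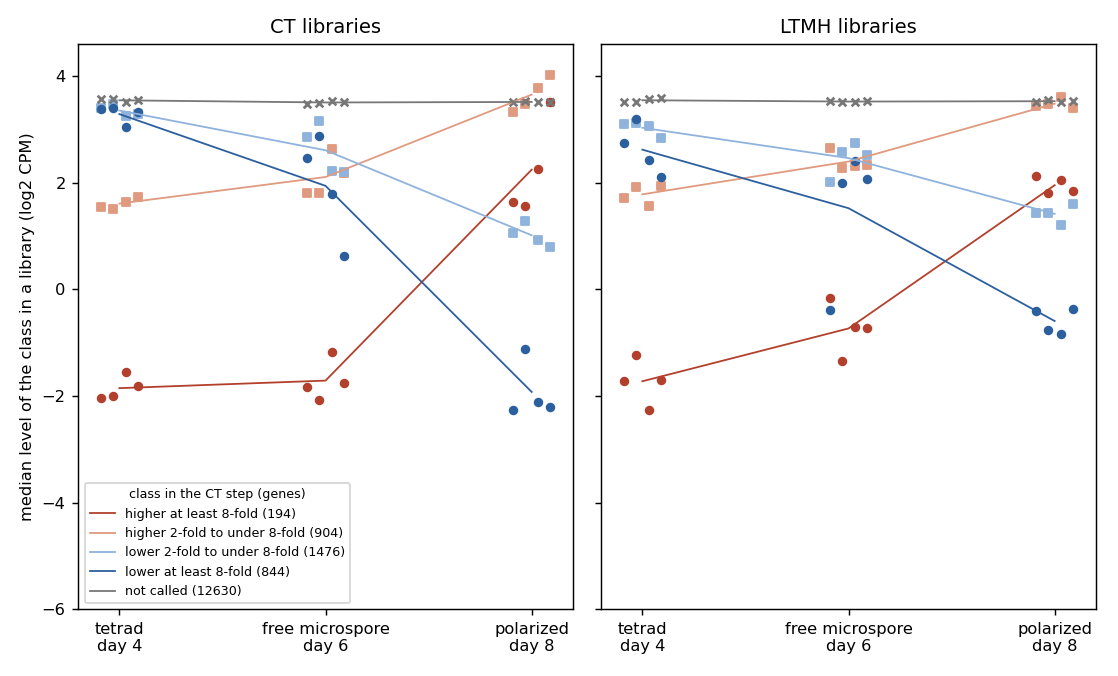
Median level of each class of genes in every library (log2 CPM, vertical axis) at the 3 stages in CT (left) and LTMH (right), with lines through the stage means (n = 4); classes were set by the CT change from the free to the polarized microspore stage. The 844 genes lower by 8-fold or more start near the level of the unchanged genes at the tetrad stage, and the 194 genes higher by 8-fold or more start near -2.

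The losses were also concentrated in fewer genes. Over all fallen genes the summed loss was 179328 CPM, of which 32.7% lay in 10 genes, and 31 genes (0.675% of those that fell) held 50% of it. The summed gain of the risen genes was 152157 CPM, of which 17.6% lay in 10 genes, and 173 genes (4.11%) were needed for 50%. Reads in polarized microspore CT anthers were spread more evenly over genes. The effective number of genes, which is the exponential of the Shannon entropy of reads over genes, was 4691, 5155, 5060 and 4715 in the polarized libraries and 4454, 4455, 4315 and 4264 in the free microspore libraries. The stages did not overlap, with means of 4905 ± 237 and 4372 ± 97.7 (SD, n = 4 each). A two-sided exact permutation test gave p = 0.0286, which 4 against 4 cannot go below, and an adjusted p = 0.0429 over 3 tests. The 10 most abundant genes of each library took 8.72 ± 0.668% of reads in polarized and 10.7 ± 0.831% in free microspore anthers (exact permutation p = 0.0286, adjusted p = 0.0429). Genes with at least 1 read numbered 23727 ± 228 and 24493 ± 375 (SD, n = 4 each), a difference that did not pass the test (exact permutation p = 0.0571). The LTMH libraries did not show this evening out. Their effective number of genes was 4314 ± 231 in polarized and 4594 ± 448 in free microspore anthers (SD, n = 4 each), which is the opposite order. That difference did not pass the exact permutation test (p = 0.20, adjusted p = 0.286). Their 10 most abundant genes took 11.6 ± 0.735% and 10.3 ± 1.05% of reads (exact permutation p = 0.0857, adjusted p = 0.257). Whether the temperatures differ in this was not tested.

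Among all fallen genes, Solyc02g078330.3 (chromosome 2 by its identifier, 1693 bases long) lost the most reads. Its mean fell by 17029.7 CPM, which was 9.50% of the summed loss. Its level was 21226, 22785, 14235 and 22617 CPM in the free microspore libraries and 4889, 5453, 1355 and 1048 CPM in the polarized ones. The lowest free microspore library was therefore still far above the highest polarized library. The gene peaked at the free microspore stage, with 5787 ± 4593 CPM in tetrad CT anthers (SD, n = 4). It fell by 2.67 ± 0.62 on the log2 scale (SE, n = 4 each, edgeR adjusted p = 0.00205).

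Solyc06g075840.1 (chromosome 6, 1266 bases), the largest fall by log2 change under the rule for named genes, was lower at each successive stage. It stood at 58.5, 68.6, 33.4 and 37.8 CPM in tetrad CT libraries and at 12.4, 12.4, 7.76 and 1.81 CPM in free microspore libraries. The 4 polarized libraries together held 2 reads, against 581 in the free microspore libraries. That is a ratio of 324 (95% counting interval 89.2 to 2680, counting error only, edgeR adjusted p = 7.21e-05).

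Solyc10g008820.3 (chromosome 10, 1821 bases), the largest rise by log2 change, appeared with polarization. It had 8 reads in the tetrad CT libraries, 1 read in the free microspore libraries and 7332 reads in the polarized libraries. The polarized to free microspore ratio was 6577 (95% counting interval 1180 to 259825, edgeR adjusted p = 4.73e-05). Its polarized levels were 17.5, 11.7, 14.8 and 353 CPM, so replicate 4 held most of its reads. Without that library the log2 change was 9.40 in place of 12.16, and the gene was still called (edgeR adjusted p = 1.59e-05, with a range over all alternatives of 2.42e-13 to 0.00844).

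Solyc09g008670.3 (chromosome 9, 2078 bases) gained the most reads, with a small fold. Its levels were 18730, 6807, 20142 and 17212 CPM in the free microspore libraries and 24979, 20498, 25102 and 32872 CPM in the polarized ones. The highest free and the lowest polarized library differed by little, and the free microspore spread rested on replicate 2. Tetrad CT anthers held 10065 ± 651 CPM (SD, n = 4). The log2 change of 0.72 ± 0.23 (SE, n = 4 each, edgeR adjusted p = 0.0156) became 0.47 without free microspore replicate 2. The call was lost without polarized replicate 4 (log2 change 0.58, edgeR adjusted p = 0.0602) and in a fit of the 8 libraries alone (0.73, edgeR adjusted p = 0.139). Across the alternatives other than the test against a log2 change of 1, the adjusted p ran from 0.0048 to 0.139.

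**Figure D4:**
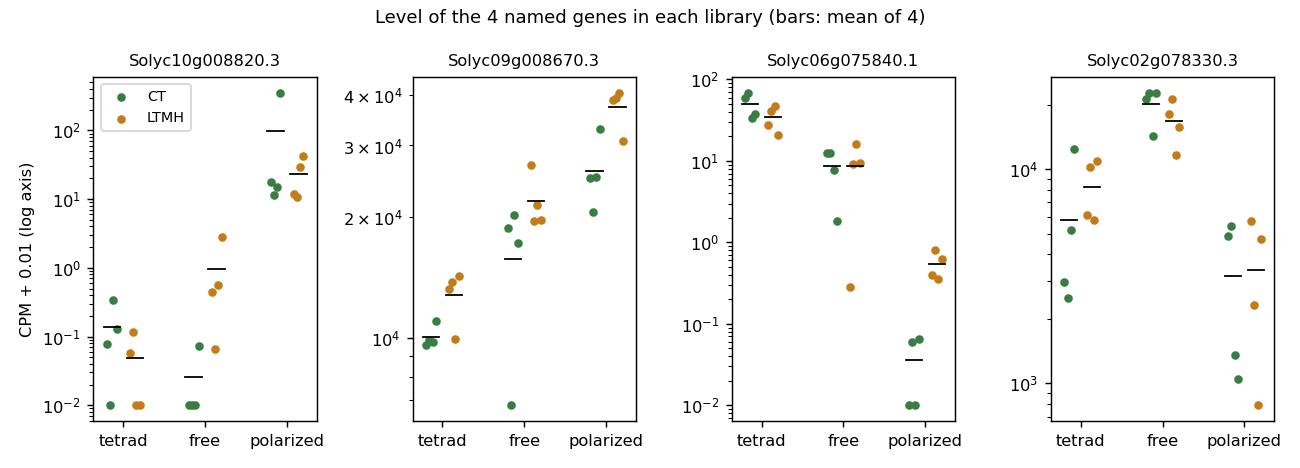
CPM + 0.01 on a log axis for the 4 named genes in each of the 24 libraries, by stage and temperature, with a bar at the mean of the 4 libraries. Solyc02g078330.3 is highest at the free microspore stage, and Solyc06g075840.1 drops at each step. Solyc10g008820.3 appears at the polarized stage in CT, while the free microspore LTMH libraries already hold 75 reads of it. Solyc09g008670.3 has its highest mean at the polarized stage.

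The LTMH stages showed the same direction for nearly all of these genes. The CT change was measured in other libraries, but LTMH libraries entered the filter, scaling and dispersion behind the CT calls. Of the 4206 genes that rose at CT, 4070 (96.8%) had a positive change between the LTMH stages, against 47.3% of all tested genes. Of the 4593 that fell, 4453 (97.0%) had a negative one, against 52.7%. In LTMH 12.1% of tested genes were called higher and 13.9% lower. Those called in the same direction were 154 of the 194 genes that rose 8-fold or more at CT (79.4%) and 549 of the 844 that fell 8-fold or more (65.0%). Their median LTMH changes were 2.93 and -2.74 on the log2 scale, against 4.13 and -4.56 at CT, where they were chosen for size. The imbalance in depth was also seen in LTMH itself. There 815 genes rose and 1516 fell by 2-fold or more, and 114 and 392 by 8-fold or more.

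No gene passed the test of a difference in the step between temperatures in edgeR (1794 at an unadjusted p below 0.05), while DESeq2 called 102 and limma on log2(FPKM + 1) called 18. For the named genes the LTMH minus CT difference in log2 change was -7.60 ± 2.66 for Solyc10g008820.3 (SE, edgeR adjusted p = 0.409) and 3.98 ± 1.97 for Solyc06g075840.1 (SE, edgeR adjusted p = 0.611). Each of these genes had a CT stage with at most 2 reads. In LTMH both were called in the CT direction, with log2 changes of 4.56 ± 1.07 (SE, edgeR adjusted p = 0.00447) and -4.02 ± 0.78 (SE, edgeR adjusted p = 0.00133). The other named genes differed by 0.06 ± 0.32 for Solyc09g008670.3 (edgeR adjusted p = 0.979) and 0.36 ± 0.82 for Solyc02g078330.3 (edgeR adjusted p = 0.944).

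What the changing genes did before was read in LTMH, from the step between the tetrad and free microspore stages. This step leaves out the shared CT libraries but comes from heat-treated plants. In that step 8.95% of tested genes were called higher and 12.4% lower. Of the genes that rose at polarization in CT, 911 (21.7%) had been higher and 145 (3.45%) lower in that earlier step. Of those that fell, 1057 (23.01%) had been lower and 146 (3.18%) higher. Among the 844 deepest falls, 206 were called lower at the earlier step and 17 called higher. Their median change there was -0.84 on the log2 scale, against 0.03 over all tested genes. Among the 194 largest rises, 35 were called higher and 2 lower, with a median change of 1.36. Their median level in LTMH was low at both stages, 0.228 CPM at the tetrad and 0.567 CPM at the free microspore stage. At CT it was 0.179 and 0.200 CPM, so the CT medians showed no such rise. The free microspore CT libraries were among those that chose these genes. The tetrad LTMH libraries also entered the read filter, so tetrad reads could help a gene with a later fall into the test. The part of the filter in these counts of the earlier step was not tested.

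Among tested genes, those that passed from near absence to clear presence, or back, were few and mostly went down. A total of 30 genes had at most 3 reads in the 4 free microspore CT libraries together and at least 40 in the polarized ones. In the other direction there were 107 genes. Of the 30 that appeared, 21 also had at most 3 reads at the tetrad stage and none had 40. Of the 107 that vanished, 97 had at least 40 reads at the tetrad stage. The read filter ran over all 24 libraries, so tetrad reads could help a gene that vanished into the test. The genes that appeared had few such reads. The part of the filter in the split between directions, and in these tetrad counts, was not tested. The order of the stages was the same in LTMH for all 30 and all 107 genes. In the LTMH stage matching the one where CT had at most 3 reads, 2 of the 30 and 26 of the 107 genes also had at most 3. The genes were chosen for that limit at CT, and no difference between temperatures is read from these counts.

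Among the 100 genes with the highest mean CPM in free microspore LTMH libraries, 38 fell and 21 rose between the CT stages. Over all tested genes 21.4% fell and 19.6% rose, and over the 5357 with the highest level 16.9% fell and 32.4% rose. By log2 change, called or not, 35 of the 100 genes were at least 2-fold lower and 4 at least 2-fold higher. These 100 genes took 23.2 ± 0.407% of reads in free and 16.4 ± 0.905% in polarized microspore CT anthers (SD, n = 4 each). Ranked instead in polarized LTMH libraries, the top 100 genes held 54 that rose and 7 that fell. They took 17.7 ± 3.24% and 18.8 ± 1.23% of reads (SD, n = 4 each). The rankings shared 60 genes. Each ranking picks genes high at its own stage, which favours falls after the free microspore stage and rises up to the polarized stage. How far that choice accounts for these counts was not tested.

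The 2 stages separated on a line drawn between the LTMH stages. Each library was placed on a line from the mean of the free (0) to the mean of the polarized (1) LTMH libraries, over 2331 genes that changed at least 2-fold between them. The ends of the line are LTMH libraries, while the CT libraries entered the filter, scaling and dispersion of the fit that chose its genes. Free microspore CT libraries lay at -0.311, -0.391, 0.062 and 0.153, and polarized CT libraries at 1.07, 0.796, 1.04 and 1.32. The stages did not overlap, and the means of -0.122 ± 0.270 and 1.06 ± 0.215 differed by 1.18 (SD, n = 4 each). The two-sided exact permutation test gave p = 0.0286. Tetrad CT libraries lay at -0.574, -0.574, -0.506 and -0.487. On this line, free microspore replicates 1 and 2 thus lay closer to the tetrad CT libraries than replicates 3 and 4 did. Distance to tetrad anthers over all genes was not measured.

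**Figure D5:**
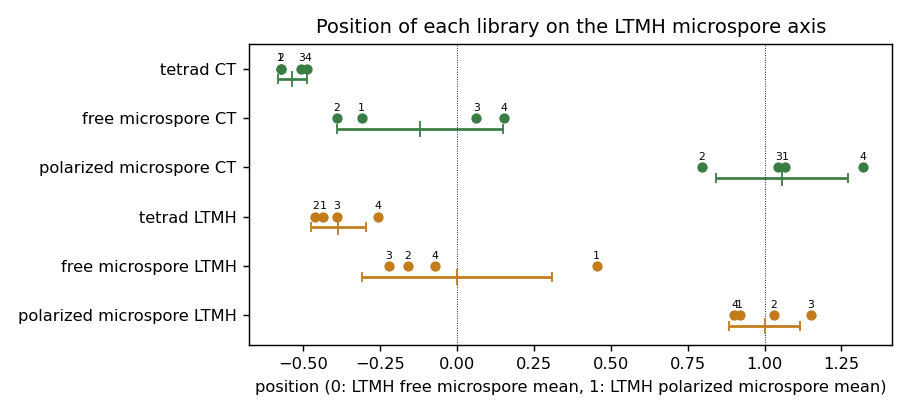
Position of each of the 24 libraries (numbered points) on the line from the LTMH free microspore mean (0) to the LTMH polarized microspore mean (1), with the group mean and SD (n = 4) beneath. The 4 free microspore CT libraries run from -0.391 to 0.153 and the 4 polarized CT libraries from 0.796 to 1.32.

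The fallen genes took shares of the reads that varied between free microspore libraries. Those shares were 32.2%, 35.9%, 19.7% and 23.7% in free microspore CT replicates 1 to 4, and between 9.33% and 12.2% in the polarized ones. Genes that fell at least 2-fold had a median SD of 0.77 log2 CPM between free microspore libraries and 0.47 between polarized ones, against 0.24 and 0.19 over all tested genes. Genes that rose at least 2-fold had nearly equal values, 0.51 and 0.50. The part that this spread has in the counts of changed genes was not tested beyond leaving out each library in turn. Those counts ran from 7199 genes without free microspore replicate 2 to 9354 without replicate 3.

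Transcript length, here the length the authors' FPKM values imply, differed little between changed genes and the rest but followed the size of the change. The median was 1629 bases for risen genes, 1662 for fallen genes and 1637 for genes not called, and 1640 (quartiles 1006 and 2514) over all tested genes. The median was 2017 bases for genes that fell less than 2-fold and 1176 bases (quartiles 672 and 1887) for those that fell 8-fold or more. It was 1688 bases for genes that rose less than 2-fold and 1424 bases (quartiles 761 and 1959) for those that rose 8-fold or more. The part of length in what could be called was not tested.

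Changed genes were found on each of the 12 numbered chromosomes, and genes with strong changes lay next to each other in more pairs than 10 places apart. Tomato identifiers carry the chromosome number and run along it. The share of tested genes that rose lay between 18.1% on chromosome 2 and 22.6% on chromosome 10, and the share that fell between 19.1% on chromosome 9 and 24.1% on chromosome 2. The 158 tested genes whose identifiers carry chromosome 0 lay outside both ranges, with 12.7% higher and 26.6% lower. Of 3892 pairs of consecutive tested genes that were both called, 59.9% moved in the same direction, compared with 49.4% of 3518 pairs that lay 10 places apart. Among genes that changed 8-fold or more there were 166 consecutive pairs, 129 of them both lower, and 49 pairs at 10 places, 34 of them both lower. Whether near-identical neighbouring copies shared reads was not tested.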

How the data were processed

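Poly-A RNA of 24 anther libraries was sequenced, 4 for each of 3 stages and 2 temperatures, with groups and replicate numbers taken from the labels. The authors deposited raw read counts per gene and FPKM values (reads scaled to gene length and library total) for those libraries. TopHat2 2.0.12 and HTSeq 0.6.1 are named in the submitters' processing notes. Genome build, annotation and strand setting were not given in the sources used here. Overlapping genes and near-identical copies are therefore uncertain. The count table has 3 further columns without a header, which are empty and were not used, and no row without a gene. FPKM equals counts over length and library total, which gave a whole-base length (tolerance 0.01 base) for all 21429 tested genes.

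Counts of all 24 libraries were fitted in edgeR 4.0.16 (R 4.3.3) in 6 groups with TMM scaling, filterByExpr (minimum count 10) and robust quasi-likelihood dispersion (18 residual degrees of freedom). Benjamini-Hochberg adjustment ran over 21429 genes. Standard errors come from the F statistic, and CPM are TMM-scaled. Named genes are, among genes called, averaging 1 CPM or more and without overlap between groups, the largest log2 change and the largest CPM difference in each direction. The edgeR comparison was also run on simulated counts with few changed genes, unlike these data, and its outcome is not reported here. Gene lists by name could not be used. Comparisons, classes and rules were chosen with earlier results of these data known. Classes with fold 8 and the top 100 genes were set after the data were examined. Counting intervals are exact binomial at 95%. Replicate numbers were not treated as pairs. No 2 libraries of a stage agreed within sampling noise (chi-square per degree of freedom 11.1 to 144). Alternatives used DESeq2 1.42.0, limma 3.58.1, other scalings and filters, and left out each library. Permutation tests used SciPy 1.17.1.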

Additional observations from a re-analysis of the deposited data

Results flagged for a closer look

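In 31 groups of 4 libraries checked for a library far from the other 3, 3 had one. Chance gives one in about 5% of independent, normally distributed groups. The groups checked here share libraries and include genes picked for large changes, so their number is not compared with that rate. Polarized microspore CT replicate 4 took 2.52% of its reads in the genes that rose 8-fold or more, against 0.570% to 0.817% in the other 3 libraries. The same library held 353 CPM of Solyc10g008820.3, against 11.7 to 17.5 CPM in the others. Free microspore CT replicate 4 held the only read of that gene among its group, 0.0624 CPM, and with counts of 0, 0, 0 and 1 any group would be picked out, so this one says nothing about the library.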

How the results depend on the processing

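As reported, 8799 genes were called. A fit of the 8 libraries alone, which tested 19798 genes, called 6233, of which 6055 were among the 8799. With the replicate number as a block in that fit, 5397 were called (2696 higher, 2701 lower), of which 5251 were among the 8799. An adjusted p below 0.01 left 5843 (2991 lower), and a test against a log2 change of 1 left 1477 (407 higher, 1070 lower, which are also its counts at 2-fold or more). The deviations of same-numbered libraries from their stage means had correlations of -0.0781, 0.208, 0.0539 and 0.0895. Between differently numbered libraries the correlations ran from -0.237 to 0.216. Whether the numbers pair the libraries was not tested. No gene called under any alternative had the opposite direction to its call as reported. Higher genes made up 47.8% of calls, and 58.8% in limma on log2(FPKM + 1), where 1264 genes were at least 2-fold lower in place of 2320. Genes lower by 8-fold or more numbered 844 as reported, 550 with a mean of at least 1 CPM, 528 in a fit of the 8 libraries alone, 504 with the block, 511 in limma on log2(FPKM + 0.1) and 232 on log2(FPKM + 1), while 61 in place of 194 were higher by 8-fold on that last scale. Pseudocounts shrink changes of low genes.

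Leaving out each library in turn gave 7199 to 9354 calls, 3507 to 4506 higher, 3692 to 4848 lower, 904 to 1349 higher by at least 2-fold and 1928 to 2483 lower by at least 2-fold. The position difference then ran from 1.09 to 1.27, the share of reads in the 10 most abundant genes from -2.26 to -1.69 percentage points, genes with a read from -946 to -675 and the effective number of genes from 449 to 604. An exact test of 3 against 4 cannot go below 0.0571. Genes with at least 1 CPM differed by -445 (exact permutation p = 0.0286, n = 4 each). Solyc09g008670.3 was not called with the block (log2 change 0.82, edgeR adjusted p = 0.0931). The causes were not tested.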

Other observations

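Stretches of at least 5 consecutive tested genes all called in 1 direction were counted along the chromosomes. There were 29 stretches of fallen genes with 158 genes and 21 stretches of risen genes with 109 genes. In LTMH, 155 of the 158 and 106 of the 109 genes had the same direction. That is close to the shares over all genes called, 97.0% of the fallen and 96.8% of the risen ones. How many stretches the share of called genes alone would give was not tested. The longest stretch of fallen genes held 8 genes on chromosome 2 with a median log2 change of -3.40. Its summed level was 61.8 CPM in tetrad, 17.2 CPM in free and 1.28 CPM in polarized microspore CT anthers. A stretch of 6 fallen genes on chromosome 11, singled out after its values were seen, was highest at the free microspore stage, with summed levels of 29.4, 114 and 3.69 CPM. The longest stretch of risen genes held 7 genes on chromosome 10, with summed levels of 56.7, 76.2 and 127 CPM.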
